A study of Mus musculus with 24 samples.

Results

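The endothelium of small veins is where leukocytes are caught and leave the blood, and 9 venous and leukocyte adhesion genes were followed in sorted brain endothelial cells. They were the adhesion molecules Vcam1, Icam1 and Icam2, the selectins Selp and Sele, the chemokine receptor Ackr1, the venous transcription factor Nr2f2, the venous receptor Ephb4 and the interleukin-1 receptor Il1r1. The genes were matched by symbol among the 53465 genes listed, and all 9 were found once. All 9 were also among the 15493 genes that were tested, for which 6 or more mice of a genotype had to hold at least 5 reads each. Selp met that minimum with 9 controls and 6 mutants, Ackr1 with 7 and 6, and Sele with 6 and 8, and the other 6 members with all 24 mice.

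RNA was taken from CD31-sorted cells of single brains, 12 from Bmal1fl/fl control mice and 12 from Bmal1fl/fl; Tie2cre mutant mice on the C57BL/6J background, untreated and kept in a light and dark cycle. Both genotypes carried the floxed alleles, and the mutants also carried Cre under the Tie2 (Tek) promoter, which removes a floxed part of the clock gene Bmal1 (listed as Arntl). The Tie2 promoter is also active in blood-forming cells, so the deletion is not limited to brain vessels. Mice were collected every 4 h from ZT2 to ZT22 (ZT0 being lights on), 2 of each genotype at each of the 6 times, and mice of both sexes entered the sequencing. The ages of these mice are not given in the sources used here. The paper surmises from earlier single-cell data that most of the sorted cells came from capillaries. The levels given here are therefore not those of venules alone.

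When tissue is inflamed, cytokines such as interleukin-1 and TNF act through NF-kB to raise the selectins, ICAM-1 and VCAM-1 on venules. Selectins slow passing leukocytes to a roll, chemokines displayed on the vessel wall activate their integrins, and the integrins then bind the ICAM and VCAM molecules for firm arrest. In the healthy brain this machinery is held low, and it is known from multiple sclerosis models, stroke and infection, where alpha-4 integrin binding to VCAM-1 admits T cells. Venous identity itself is set by COUP-TFII, the product of Nr2f2, and Ephb4 marks the venous side against its arterial ligand ephrin-B2.

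The libraries held 6136404 to 6648311 normalized reads, close to one another because the authors had normalized them, so the original depth is not known. At these totals a count of 0 allows up to 3 reads, counting error only. The 10 endothelial markers were all high, among them Cldn5 at 5397 reads in the average control and Pecam1 at 7400. Arntl was read 1 to 468 times in controls (median 166.5) and 81 to 354 times in mutants (median 242.5). Its count covers the whole gene, with exons outside the deleted part, so it does not check the deletion. The title numbers of the libraries form 2 unbroken runs. Control ZT2 replicate 1 and both mutants of ZT14 make up the first number block, so at ZT14 genotype and number block cannot be told apart. At ZT2 and ZT10 controls and mutants also differ in the i5 index of their barcodes. The 8 ZT6 and ZT18 libraries follow each other at the start of the second run, with no break before the rest, and are told from them by their time points and not by a batch label. They stood apart, with a mitochondrial share of 2.68% to 3.90% against 5.78% to 17.4% in the other 16. Other cell types also differed between these sets. The summed microglia markers were 999 to 1672 reads in the 8 and 9080 to 24472 in the 16, with 6 of 6 markers called lower. The summed endothelial markers were 125995 to 133195 against 84714 to 117516, with 8 of 10 called higher. Higher too were 8 of 9 pericyte and smooth muscle markers and 2 of 6 fibroblast markers. Lower were 4 of 4 tested leukocyte, 5 of 6 astrocyte, 5 of 5 oligodendrocyte, 5 of 5 neuron, 5 of 5 red blood cell, 4 of 5 choroid plexus, 1 of 6 tested platelet and 1 of 3 tested lymphatic markers. Over all genes 7.21% were called higher and 11.4% lower. The lymphatic call was Prox1 (log2 difference -1.94). Pdpn (-1.38) and Flt4 (0.24), which held 94.4% of the summed lymphatic reads, were not called. The fibroblast markers that were not called went in both directions. In bulk RNA, fewer cells of a type and less RNA per cell cannot be told apart. What sets these 8 libraries apart cannot be told apart from their time of day.

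Set in order by reads per kb of exon, the members fell into an upper group of 6 and a lower group of 3. In controls, Icam2 had 320.7 reads per kb, Ephb4 289.6, Icam1 160.8, Vcam1 86.5, Il1r1 58.7 and Nr2f2 55.1. Ackr1 had 9.37, Sele 5.21 and Selp 4.31. Neighbours were compared within each mouse by an exact two-sided sign-permutation test on the log2 ratio of reads per kb, with 0.5 reads added and p-values adjusted over 8 comparisons in each genotype. The order came from the means of the same mice, so pairs and directions were chosen from the values tested. The adjustment does not cover that choice. The step from Nr2f2 to Ackr1 was 3.82 ± 2.37 log2 units in controls (SD, n = 12), with Nr2f2 higher in 12 of 12 mice (exact adjusted p = 0.00195). In mutants it was 4.13 ± 2.03 (SD, n = 12), again in 12 of 12 mice (exact adjusted p = 0.00195). Neighbours that did not differ beyond their spread in either genotype were Il1r1 and Nr2f2, Ackr1 and Sele, and Sele and Selp. Icam2 and Ephb4 did not differ in controls (exact adjusted p = 0.314), and Icam2 was the higher of the pair in 10 of 12 mutants (exact adjusted p = 0.0254). Vcam1 was above Il1r1 in 12 of 12 controls (exact adjusted p = 0.00195) and in 8 of 12 mutants, where the step did not pass the test (exact adjusted p = 0.118). Whether these steps differed between the genotypes was not tested.

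**Figure D1:**
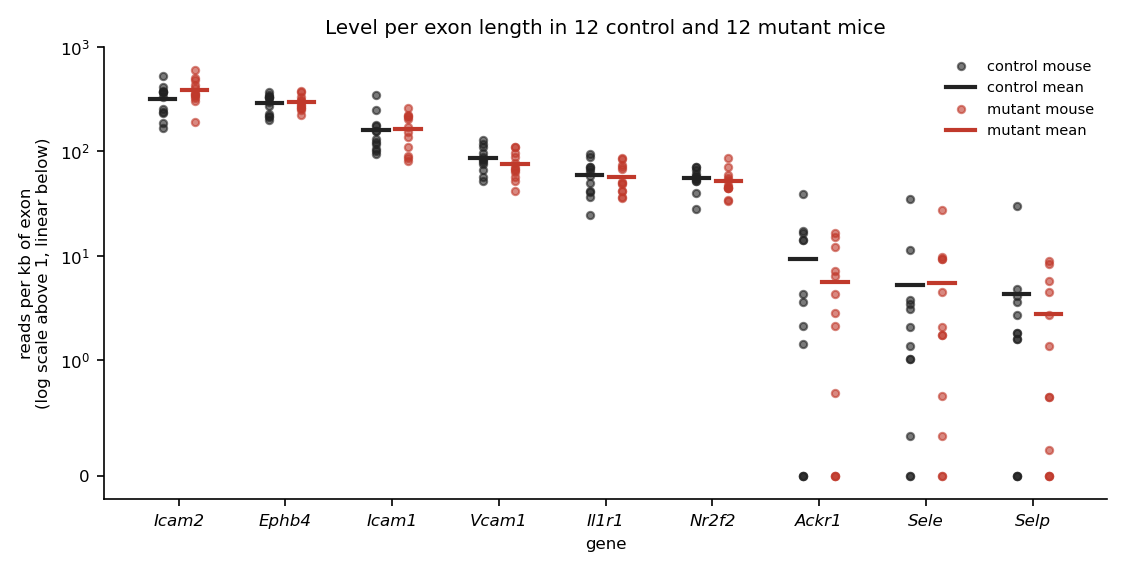
Level per kb of exon of each member in 12 control (black) and 12 mutant (red) mice, with horizontal bars at the means, on an axis that is logarithmic above 1 and linear below. Icam2, Ephb4, Icam1, Vcam1, Il1r1 and Nr2f2 were read in all 24 mice, and Ackr1, Sele and Selp lay lower and were listed at 0 in 6, 4 and 6 mice.

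Between genotypes, 0 of the 9 members differed with an adjusted p under 0.05 by the quasi-likelihood test of edgeR, fitted with genotype and time point (Benjamini-Hochberg over 15493 genes), where 0.271% of all genes were called. At an unadjusted p under 0.05 there was 1 of 9, Icam2, against 6.95% of all genes, and DESeq2 called 0 of 9. At single time points, with 2 mice of each genotype, controls and mutants did not overlap in 17 of 54 pairings of a member and a time, the mutants being higher in 9 and lower in 8. Over all genes the share was 34% (17.3% higher, 16.7% lower), close to that of the members. At ZT14, Vcam1, Icam1 and Nr2f2 were lower and Icam2, Il1r1 and Ephb4 higher in mutants without overlap. The share of all genes at ZT14 alone is not given here. At that time genotype and number block cannot be told apart, which holds for every ZT14 value given below. The median log2 fold change of mutant over control was -0.030 over the 9 members and 0.0033 over all genes tested, and 4 of 9 were above 0. Replicates are single mice, 2 in each genotype at each time point, and the biological coefficient of variation across all genes was 42.4%.

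**Figure D2:**
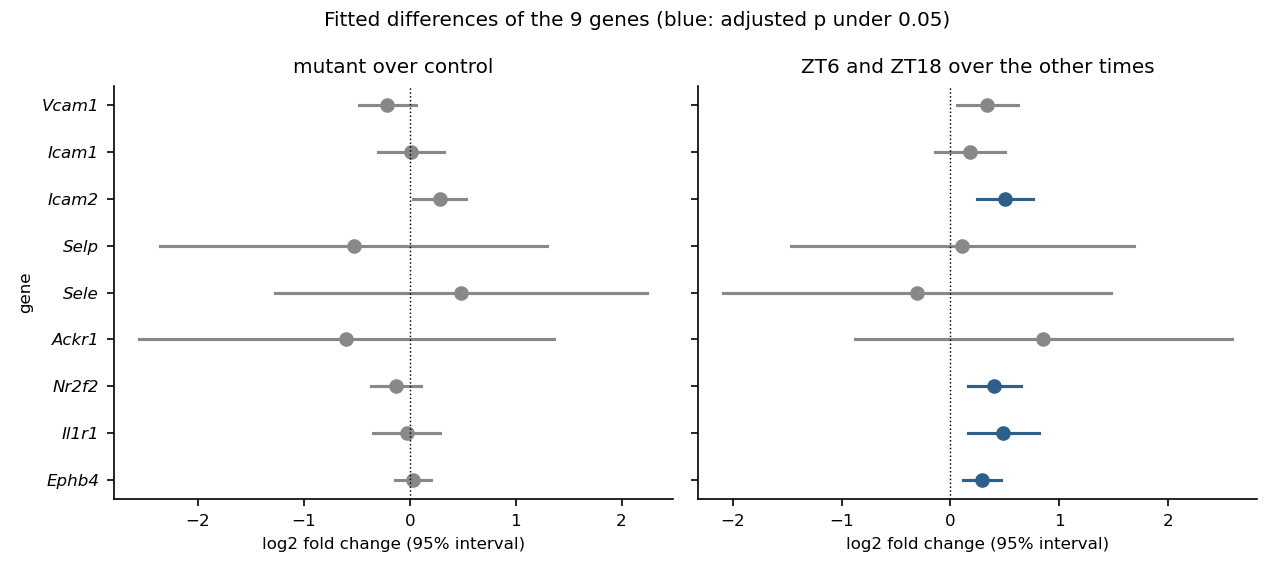
Log2 fold change of each member, mutant over control on the left and ZT6 and ZT18 over the other 4 time points on the right, with 95% intervals from edgeR's quasi-likelihood fit over 24 mice. On the left no interval passed the adjusted test, and on the right Icam2, Nr2f2, Il1r1 and Ephb4 (blue) passed it, at 0.50, 0.40, 0.48 and 0.29, Il1r1 not in 5 of 24 fits without a single mouse.

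Vcam1 (ENSMUSG00000027962, GRCm38 chromosome 3, 116109949 to 116129688, minus strand) encodes the adhesion molecule that binds the alpha-4 beta-1 integrin of lymphocytes and monocytes. It had 460 to 1135 reads in controls (median 740) and 371 to 984 in mutants (median 611.5). Over all times the ranges overlapped. At ZT14, with 708 and 753 reads in controls and 461 and 601 in mutants, and at ZT18, with 980 and 858 against 691 and 789, the mutants were lower without overlap. The mean was 767 ± 208 in controls and 667 ± 197 in mutants (SD, n = 12 each), a log2 fold change of -0.21 (SE 0.13, 95% interval -0.48 to 0.06, adjusted p = 0.816). Its level was lowest at ZT10, with 371 to 727 reads in the 4 mice, and its means at ZT6 and ZT18 were both 829.5. The differences among time points did not pass edgeR's test (adjusted p = 0.222).

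Icam1 (ENSMUSG00000037405, GRCm38 chromosome 9, 21015985 to 21028817, plus strand) encodes the cytokine-inducible ligand of the leukocyte beta-2 integrins LFA-1 and Mac-1. It ran from 407 to 1499 reads in controls (median 626) and from 351 to 1129 in mutants (median 708). The ranges overlapped. The log2 fold change was 0.01 (SE 0.15, 95% interval -0.30 to 0.32, adjusted p = 0.995 by edgeR). Icam1 differed between time points (adjusted p = 0.0117 by edgeR's F-test over 6 time points, any shape). At ZT14 the 4 mice had 373 to 459 reads, a mean of 408.75 ± 36.4 (SD, n = 4), and each lay below every mouse of ZT6, ZT10, ZT18 and ZT22. Both controls of ZT14 were above both mutants. At ZT22 the mean was 1033.5 ± 401 (SD, n = 4), with a control at 1499 reads as the highest of all 24 mice and the other control of that time at 531. That other control, replicate 2, had the highest choroid plexus marker sum of all 24 mice, 68836 reads, and the lowest endothelial marker sum, 84714. What this did to the ZT22 values was not tested. The ZT2 mice, at 351 to 888 reads, overlapped those of ZT14.

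Icam1 and Sele are classic NF-kB targets, so their promoters are shown with NF-kB-like letters marked. The window of 250 bases before to 50 after the start was at hand for 7 of 9 members (8 windows, RefSeq, GRCm38.p6). The Icam1 window is chr9:21015690-21015989 on the plus strand and that of Sele is chr1:164047984-164048283 on the plus strand. Capitals mark GGNNNTTCC on either strand and, in Sele, also the AP-1-like TGANTCA.
Icam1: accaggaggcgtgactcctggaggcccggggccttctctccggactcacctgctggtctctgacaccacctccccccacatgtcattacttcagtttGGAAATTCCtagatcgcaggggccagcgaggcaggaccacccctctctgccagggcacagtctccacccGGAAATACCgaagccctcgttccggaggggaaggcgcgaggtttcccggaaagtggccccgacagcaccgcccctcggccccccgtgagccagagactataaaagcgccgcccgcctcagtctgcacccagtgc
Sele: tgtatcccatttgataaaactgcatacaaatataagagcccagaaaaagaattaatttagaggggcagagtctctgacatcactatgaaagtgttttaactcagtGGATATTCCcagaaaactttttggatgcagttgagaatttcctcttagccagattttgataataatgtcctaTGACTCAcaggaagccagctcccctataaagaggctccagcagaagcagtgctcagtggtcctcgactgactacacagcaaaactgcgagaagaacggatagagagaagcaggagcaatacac
In Icam1 the matches were GGAAATTCC at -153 to -145 and GGAAATACC at -84 to -76 from the start, the latter a match on the opposite strand. In Sele they were GGATATTCC at -145 to -137 and TGACTCA at -73 to -67.

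Searched on both strands, GGNNNTTCC was in 6 of the 8 member windows (Il1r1, Sele, Selp, Ackr1, Nr2f2 and Icam1) and in 18.5% of 32851 windows of the same length. The stricter NF-kB consensus was in 1 (Il1r1) and in 8.46% of all windows, and in neither window printed here. TGANTCA was in 2 (Sele and Selp) and in 7.81% of all windows, and AGATAA, known from erythroid promoters, was in 1 (Ackr1) and in 11.2%. The E-box CACGTG, the letters bound by the CLOCK and BMAL1 pair, was in 0 of 8 member windows and in 7.15% of all windows. The motifs were chosen after the sequences had been seen, and a match is a description of letters only.

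Icam2 (ENSMUSG00000001029, GRCm38 chromosome 11, 106377656 to 106388075, minus strand) encodes a constitutive integrin ligand at endothelial junctions. It had 321 to 1010 reads in controls (median 665.5) and 364 to 1139 in mutants (median 679.5). At ZT14 the controls had 446 and 481 reads and the mutants 641 and 767, and at ZT22 the controls had 355 and 456 and the mutants 619 and 683, with no overlap at either time. At the other 4 times the genotypes overlapped. The log2 fold change over all times was 0.28 (SE 0.12, 95% interval 0.03 to 0.53, unadjusted p = 0.0280, adjusted p = 0.631 by edgeR), so it did not pass the test over all genes. Without the first number block it was 0.24 with an unadjusted p of 0.110 (adjusted p = 0.929 by edgeR). Without the control ZT10 replicate 1 mouse, the lowest of all 24 at 321 reads, it was 0.24 with an unadjusted p of 0.0546 and an edgeR adjusted p of 0.739. Time of day passed for Icam2 (adjusted p = 0.0144 by edgeR), with means of 936 ± 215 at ZT18 and 516 ± 202 at ZT10 (SD, n = 4 each).

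**Figure D3:**
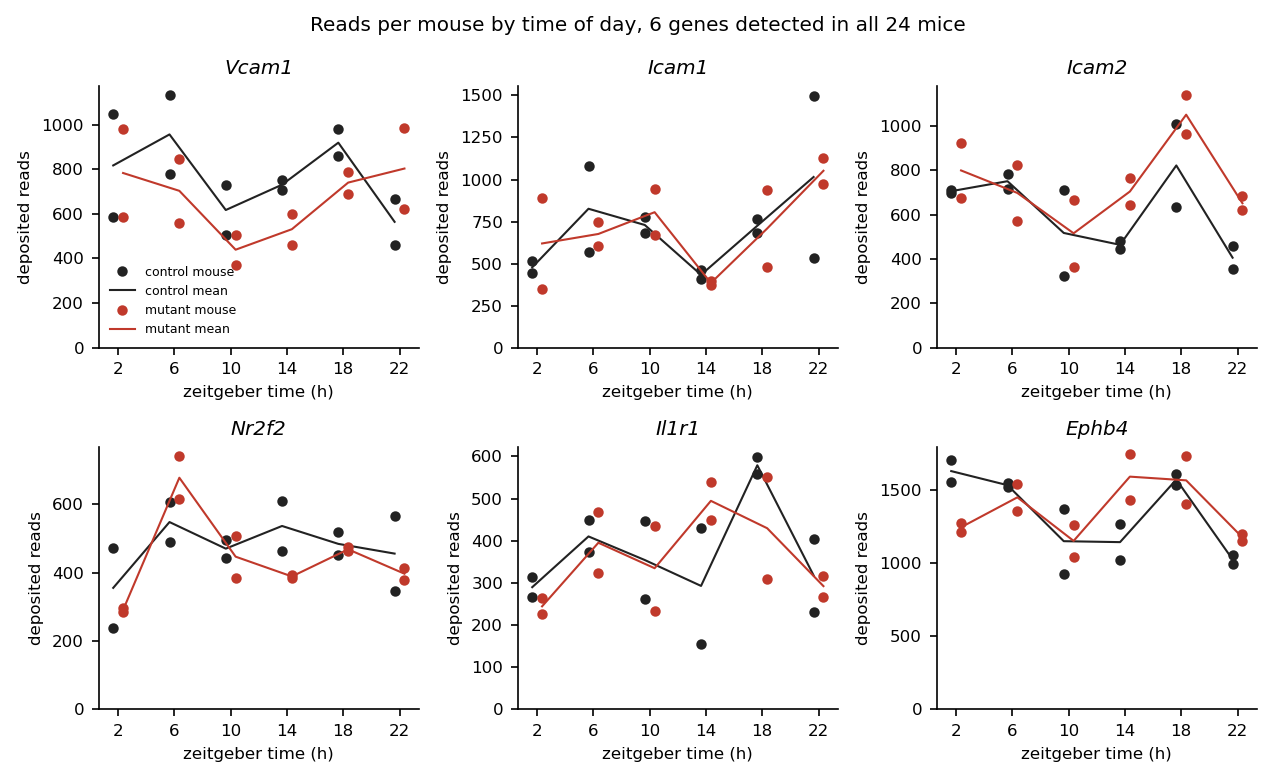
Deposited reads of the 6 members found in all 24 mice against zeitgeber time in hours, with 1 point for each mouse, 2 for each genotype and time, and lines through the means of controls (black) and mutants (red). Icam1 was low in all 4 mice of ZT14 (373 to 459 reads), and Icam2 was highest on average at ZT18 (936 reads).

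The selectins were near the limit of detection. Selp (ENSMUSG00000026580, GRCm38 chromosome 1, 164115264 to 164150026, plus strand) encodes P-selectin, which endothelial cells store in granules and platelets also carry. It had 0 to 131 reads in controls (median 8) and 0 to 39 in mutants (median 4.5), with 3 mice of each genotype at 0. Sele (ENSMUSG00000026582, GRCm38 chromosome 1, 164048234 to 164057677, plus strand) encodes E-selectin, made on cytokine stimulation and neighbouring Selp on the chromosome. It had 0 to 102 reads in controls (median 5) and 0 to 79 in mutants (median 5.5), with 2 mice of each genotype at 0. Both genes were thus under 10 reads in the median mouse of either genotype.

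Ackr1 (ENSMUSG00000037872, GRCm38 chromosome 1, 173331886 to 173333750, minus strand) encodes a receptor that carries chemokines across venular endothelium without signalling. It had 0 to 55 reads in controls (median 5.5) and 0 to 23 in mutants (median 5), with 3 mice of each genotype at 0. Both controls of ZT14 were at 0 reads of Ackr1. Its gene overlaps Cadm3 on the same strand, which had up to 81 reads in a mouse, so that the division of reads between them is uncertain.

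The highest value of Selp, Sele and Ackr1 came from the same mouse, control ZT10 replicate 1, with 131, 102 and 55 reads. That mouse alone held 57.5% of all control reads of Selp, 56.0% of those of Sele and 34.8% of those of Ackr1. With it the control means were 19 ± 36.0 for Selp, 15.2 ± 28.8 for Sele and 13.2 ± 16.3 for Ackr1 (SD, n = 12). Without it they were 8.82 ± 7.32, 7.27 ± 9.38 and 9.36 ± 10.1 (SD, n = 11), beside 12.2 ± 14.6, 16.1 ± 22.6 and 7.83 ± 8.34 in mutants (SD, n = 12). The direction of Selp between genotypes turned on this mouse. Its edgeR log2 fold change was -0.53 (SE 0.90, 95% interval -2.35 to 1.3) with the mouse and 0.04 without it. That of Sele was 0.48 (SE 0.86, 95% interval -1.28 to 2.24) with the mouse and 0.99 without it. That of Ackr1 was -0.60 (SE 0.96, 95% interval -2.56 to 1.36) with the mouse and -0.06 without it. None of these 6 values passed the test, and the adjusted p of edgeR lay between 0.884 and 0.997 over them. The coefficient of variation over the 24 mice was 174% for Selp, 162% for Sele and 123% for Ackr1. The intervals are wide and include genotype differences in either direction.

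The same mouse was the lowest of all 24 in Icam2 (321 reads) and Ephb4 (927 reads) and ranked 11th of 24 in Vcam1 and 12th in Icam1. It also had the highest sum of the 10 leukocyte markers, 3152 reads against 107 to 1494 in mutants, with Ptprc at 1391, Lyz2 at 840, S100a9 at 75 and Cd79a at 0. Its 7 platelet markers summed to 513 reads, the highest of all mice and against 58 to 277 in mutants, with Pf4 at 171 and Itga2b at 240. Its endothelial markers summed to 85975 reads, with 22 mice above it. Summed reads of the 28 IL-1, TNF and NF-kB genes were 15326 in this mouse, with 2 mice above it. Those of 14 chemokines and cytokines were 11543, with 11 mice above it. Il1a at 655, Il1b at 559 and Ccl2 at 323 were the highest of all mice, and Tnf at 232 was not (highest 258). The part of leukocytes, platelets and these cytokine genes in its selectin and Ackr1 reads was not tested. Across the 24 mice the rank correlation with the platelet sum was -0.01 for Selp, 0.32 for Sele and -0.09 for Ackr1, and with the leukocyte sum 0.10, 0.22 and -0.14. That of Selp with Ackr1 was 0.50 and with Sele 0.43, a description over libraries that share their time points and normalization.

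**Figure D4:**
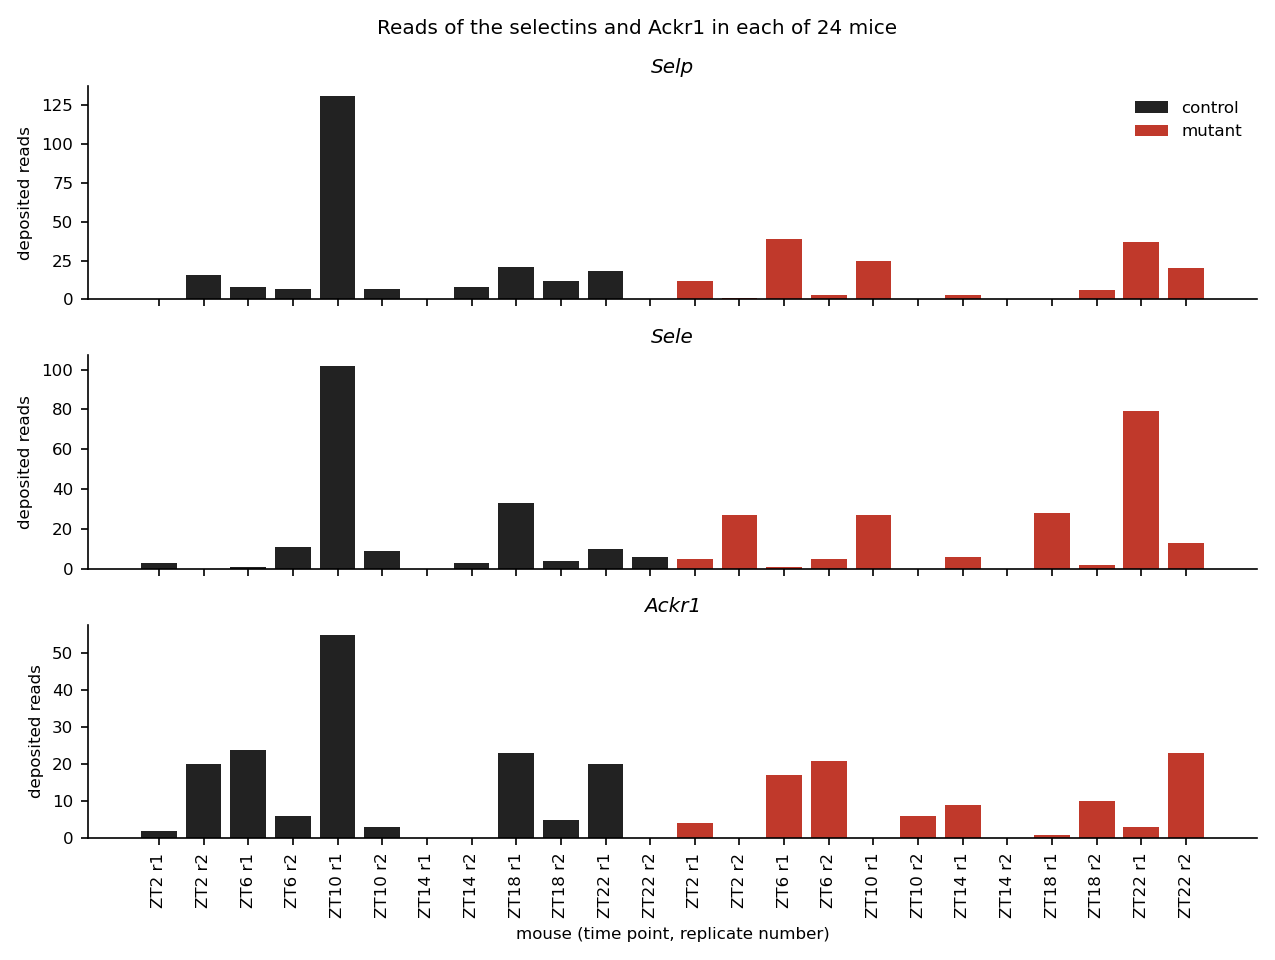
Deposited reads of Selp, Sele and Ackr1 in each of the 24 mice, controls in black and mutants in red, on linear axes from 0. Control ZT10 replicate 1 had the highest bar in each panel, at 131, 102 and 55 reads, and mutant ZT22 replicate 1 was next for Sele at 79.

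Nr2f2 (ENSMUSG00000030551, GRCm38 chromosome 7, 70351944 to 70366735, minus strand), which maintains vein identity by holding Notch signalling down, had 239 to 610 reads in controls (median 481.5) and 286 to 742 in mutants (median 403.5). The genotypes overlapped, and the log2 fold change was -0.13 (SE 0.11, 95% interval -0.36 to 0.11, adjusted p = 0.893 by edgeR). At ZT14 its controls had 610 and 464 reads and its mutants 385 and 393, and at ZT6 the order was the opposite, with 491 and 606 in controls and 742 and 615 in mutants, without overlap at either time. The difference between time points passed (adjusted p = 0.0178 by edgeR), with the lowest mean at ZT2, 323 ± 102, and the highest at ZT6, 613.5 ± 103 (SD, n = 4 each). Every ZT6 mouse, at 491 to 742 reads, was above every ZT2 mouse, at 239 to 472. An overlapping gene on the other strand, B130024G19Rik, had at most 36 reads.

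Ephb4 (ENSMUSG00000029710, GRCm38 chromosome 5, 137350109 to 137378669, plus strand) encodes a receptor tyrosine kinase of veins and was the most even of the 9 members. It had 927 to 1707 reads in controls (median 1448) and 1044 to 1752 in mutants (median 1319.5), with overlapping ranges and a coefficient of variation of 18.1% over the 24 mice. The log2 fold change was 0.03 (SE 0.08, 95% interval -0.13 to 0.20, adjusted p = 0.977 by edgeR). Time points differed for Ephb4 (adjusted p = 0.0284 by edgeR), between a mean of 1101 ± 92.3 at ZT22 and 1571 ± 138 at ZT18 (SD, n = 4 each), and the 4 mice of ZT22 all lay below the 4 of ZT18. At ZT2 the controls had 1556 and 1707 reads and the mutants 1215 and 1278, while at ZT14 the controls had 1022 and 1267 and the mutants 1752 and 1435. Mutants were the higher ones at ZT22 too, with 1201 and 1152 against 1055 and 997. The test of genotype by time point did not pass for Ephb4 (unadjusted p = 0.167, adjusted p = 0.973 by edgeR).

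Il1r1 (ENSMUSG00000026072, GRCm38 chromosome 1, 40225080 to 40317257, plus strand) encodes the signalling receptor for interleukin-1, and in the brain it is found mainly on endothelial cells of venules. It had 155 to 599 reads in controls (median 388) and 225 to 551 in mutants (median 320), again overlapping. At single times the mutants lay below the controls at ZT2 (263 and 225 against 313 and 266) and ZT18 (308 and 551 against 599 and 559) and above them at ZT14 (539 and 450 against 155 and 430). The log2 fold change was -0.03 (SE 0.15, 95% interval -0.34 to 0.29, adjusted p = 0.992 by edgeR). Its time point means ran from 267 ± 36.0 at ZT2 to 504 ± 133 at ZT18 (SD, n = 4 each) without passing the test (adjusted p = 0.0973 by edgeR). A same-strand gene model inside it, Gm38070, had up to 193 reads, so some reads of Il1r1 may have been given to that model.

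Over all 9 members, 4 passed the any-shape test of time of day (Icam1, Icam2, Nr2f2 and Ephb4), against 13.4% of all genes. Their highest means fell at ZT22 for Icam1, at ZT18 for Icam2 and Ephb4 and at ZT6 for Nr2f2. With the i5 index as a covariate 1 of the 4 passed, Icam1 (adjusted p = 0.0144 by edgeR), and without the first number block 3 passed, Icam1 being lost (adjusted p = 0.160 by edgeR). That block holds 2 of the 4 mice of ZT14, and leaving it out was an alternative added after the data were seen. The calls other than Icam1 were sensitive to single mice. Leaving out each mouse in turn took Ephb4 over the threshold in 7 of 24 fits (adjusted p up to 0.0669), Nr2f2 in 3 (up to 0.0624) and Icam2 in 2 (up to 0.0588), while Icam1 passed in 24 of 24 (edgeR adjusted p 0.000843 to 0.0474). The mice that Icam2 needed were mutant ZT18 replicate 1 and control ZT18 replicate 2, and those of Nr2f2 were mutant ZT2 replicate 2, mutant ZT6 replicate 1 and control ZT2 replicate 1. For Ephb4 they were both controls of ZT22, replicate 1 of the controls at ZT10 and ZT18 and of the mutants at ZT18, and replicate 2 of the mutants at ZT10 and ZT22.

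A 24-h rhythm was found in 0 of 9 members in either genotype by meta2d, the test of the study's methods, a combination of the JTK_CYCLE and Lomb-Scargle methods. At p under 0.05 it called 2.43% of all genes in controls and 2.27% in mutants, and at q under 0.6, the study's threshold, 0.31% and 0.0387%. The lowest p of a member in controls was 0.992, for Ephb4. In mutants it was 0.155, for Vcam1, with a peak at ZT23.3 and a relative amplitude of 27.1%, followed by Il1r1 at 0.469. Within meta2d the JTK_CYCLE p is multiplied over the phases tried and capped. A meta2d p near its upper limit therefore does not grade how absent a rhythm is. An edgeR cosinor on controls gave its lowest member p for Sele (unadjusted p = 0.230). On mutants the cosinor gave Vcam1 an unadjusted p of 0.0256 (adjusted p = 0.9999). The difference of the Vcam1 rhythm between genotypes did not pass (unadjusted p = 0.152 by edgeR). No member passed the test of a difference in rhythm between genotypes, and unadjusted p-values ran from 0.103 (Sele) to 0.949 (Icam1), where edgeR called 0% of all genes and 4.26% had an unadjusted p under 0.05.

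In the test of genotype by time point, 0 of 9 members were called (0.0129% of all genes) and 0 of 9 had an unadjusted p under 0.05 (5.22% of all genes) by edgeR. Ackr1 is counted here and at single times, but both of its ZT14 controls had 0 reads. Its ZT14 value (log2 fold change 5.19, SE 2.99) and its test of genotype by time point are thus not resolved. At single time points, 0 of 9 passed at any of the 6, where edgeR called 0% of all genes at ZT2, ZT18 and ZT22, 0.0129% at ZT6, 0.0645% at ZT10 and 0.232% at ZT14. Unadjusted, Icam2 at ZT22 (log2 fold change 0.67, SE 0.30, adjusted p = 0.999 by edgeR) and Nr2f2 at ZT14 (-0.57, SE 0.27, adjusted p = 0.559 by edgeR) had a p under 0.05, where 2.88% and 8.91% of all genes did. At ZT2, ZT6, ZT10 and ZT18, 0 of 9 had one, beside 6.67%, 5.54%, 5.49% and 5.07% of all genes. The values of Icam2 at ZT22 and Nr2f2 at ZT14 come from the pairs of mice without overlap given above. For Nr2f2 at ZT14, genotype and number block cannot be told apart.

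In ZT6 and ZT18 libraries the fitted log2 difference from the other 16 was above 0 for 8 of 9 members, with a median of 0.34 against 0.0067 over all genes. The 4 that passed, all higher, were Icam2 at 0.50 (SE 0.13, adjusted p = 0.00437), Nr2f2 at 0.40 (SE 0.12, adjusted p = 0.0156), Il1r1 at 0.48 (SE 0.16, adjusted p = 0.0306) and Ephb4 at 0.29 (SE 0.09, adjusted p = 0.0128) by edgeR, where 7.21% of all genes were called higher. Vcam1 stood at 0.34 (adjusted p = 0.0876, under 0.05 in 5 of 31 alternatives), Icam1 at 0.18 (adjusted p = 0.528), Ackr1 at 0.85 (adjusted p = 0.583), Selp at 0.11 (adjusted p = 0.955) and Sele at -0.30 (adjusted p = 0.877) by edgeR. The deposited reads of Selp averaged 12 in the 8 libraries and 17.4 in the 16, so its sign is not resolved. Without the first number block Nr2f2 no longer passed (0.31, adjusted p = 0.0754 by edgeR). Il1r1 lost its call in 5 of 24 fits that left out a single mouse (either control of ZT18, control ZT6 replicate 2, mutant ZT6 replicate 1 or mutant ZT18 replicate 2, adjusted p up to 0.0781 by edgeR). Ephb4 ran from 1361 to 1732 reads in the 8 libraries and from 927 to 1752 in the other 16, and Icam2 from 572 to 1139 and from 321 to 922.

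The endothelial markers rose in those libraries as well, with a median log2 difference of 0.35, and so did 12 of 16 genes that respond to cell isolation, with a median of 0.57. The part of the latter in the members' differences was not tested. When each library was instead scaled to its 10 summed endothelial markers, a scaling added after the data were seen, the median over all genes moved from 0.0067 to -0.35 and 0 of 9 members passed. On that scale Ackr1 was at 0.49, Icam2 at 0.15, Il1r1 at 0.12, Nr2f2 at 0.04, Vcam1 at -0.01, Ephb4 at -0.06, Icam1 at -0.18 and Selp at -0.25, above the all-gene median, and Sele at -0.70 was below it. Of the 4 members that passed the time test, Icam1 alone passed on that scale (adjusted p = 0.000785 by edgeR). For Ackr1, with both controls of ZT14 at 0 reads, the difference of the genotype effect between the sets of libraries could not be fitted. Of the other 8 members 0 were called for it by edgeR (0% of all genes), and 0 had an unadjusted p under 0.05, against 5.29% of all genes, and the lowest was Nr2f2 with 0.16 at ZT6 and ZT18, -0.28 at the other times and an unadjusted p of 0.0742 for the difference by edgeR.

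The nearest genes of Icam1 by Spearman rank correlation, among 9896 with a mean of 50 or more reads, were Egr1 (rho 0.84), an immediate early gene, Birc3 (0.81), an NF-kB target that inhibits apoptosis, and Rgs16 (0.81), a regulator of G protein signalling. Its rho with the summed reads of 28 IL-1, TNF and NF-kB genes was 0.76, with 16 genes that respond to cell isolation 0.71, and with the endothelial markers -0.12. With the first of these lists Selp was at 0.50 and Ackr1 at 0.44, with the isolation genes Il1r1 and Selp were both at 0.47, and with the endothelial markers Sele was at -0.20 and Selp at -0.08. The isolation genes, immediate early and heat shock genes such as Fos and Hspa1a, varied from 24760 to 92371 summed reads, and 16 of 16 passed the time test (13.4% of all genes). Genotype called 0 of the 16 by edgeR. At an unadjusted p under 0.05 there were 10 of 16, against 6.95% of all genes. The median genotype log2 fold change of the 16 was 0.28. The part of these isolation genes in the Icam1 differences was not tested. These correlations are a description over 24 mice that share time points and normalization.

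**Figure D5:**
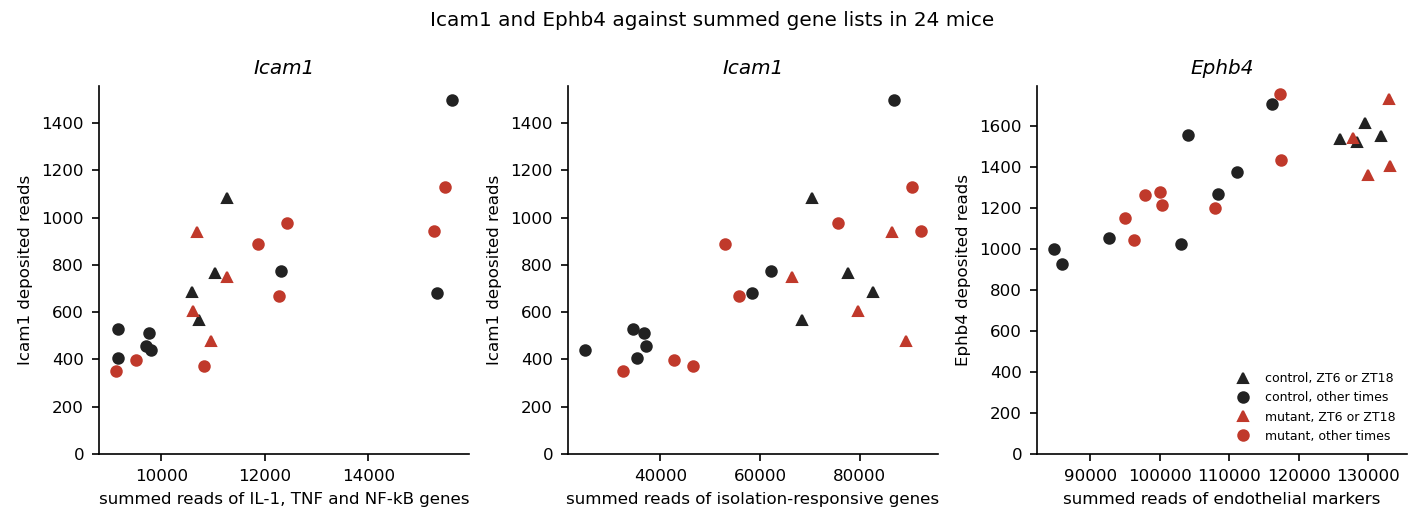
Deposited reads of Icam1 against the summed reads of 28 IL-1, TNF and NF-kB genes (left) and of 16 isolation-responsive genes (middle), and of Ephb4 against 10 summed endothelial markers (right), in 24 mice, with triangles for ZT6 and ZT18. Icam1 was higher in mice with higher sums (rho 0.76 and 0.71), and Ephb4 in mice with more endothelial marker reads (rho 0.82).

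Ephb4 followed endothelial genes: Nos3 (rho 0.90), the endothelial nitric oxide synthase, Arap3 (0.88) and Rasip1 (0.87), a regulator of vessel lumen formation. Its rho with the endothelial marker sum was 0.82 and with 12 arterial genes 0.86, and with 12 other venous genes 0.45. Vwf, which encodes von Willebrand factor, held 65.1% of the summed venous reads, and with the other 11 venous genes the rho was 0.47. Icam2 was nearest to Adam15 (0.83), Bsg (0.82), which encodes basigin of the blood-brain barrier, and Ckap4 (0.80), and its rho with the endothelial markers was 0.63. Nr2f2 was nearest to Kmt2e (0.84), Prrc2c (0.83) and Kat6b (0.81). Il1r1 was nearest to Tmem252 (0.81), Ankrd50 (0.77) and Dlc1 (0.77). Vcam1 was nearest to Txndc12 (0.79), Hdgfl3 (0.74) and Lmnb2 (0.72), and its rho with the microglia markers was -0.66, beside -0.70 for Ephb4 (-0.79 with the leukocyte markers), -0.57 for Nr2f2, -0.48 for Il1r1 and -0.43 for Icam2. Between members the highest rho over the 24 mice was 0.58, of Icam2 with Ephb4, and Icam1 with Icam2 was at 0.04. For the differences between the 2 mice of each of the 12 groups, Pearson's r ran from -0.64 (Icam2 with Il1r1) and -0.62 (Icam2 with Selp) to 0.79 (Selp with Il1r1, the same sign in 9 of 12 groups), with Selp at few reads.

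For the lists that follow, 13.4% of all genes passed the time test, 7.21% were called higher and 11.4% lower in ZT6 and ZT18 libraries, 0.271% were called by genotype and 6.95% had an unadjusted genotype p under 0.05. Among 14 tested genes of leukocyte adhesion and transmigration beside the members, 9 passed the time test, and in ZT6 and ZT18 libraries 9 were higher and 1 lower. The higher ones included Cdh5, the VE-cadherin of junctions (log2 difference 0.53, adjusted p = 7.9e-07), Pecam1 (0.47), Cd34 (0.37), Podxl (0.48) and Esam (0.32) by edgeR. The lower was Selplg, the P-selectin ligand of leukocytes and microglia, at -3.87. Genotype called 0 of the 14, and 3 had an unadjusted p under 0.05.

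Of 8 tested ligands and integrins of the leukocyte side, 4 passed the time test (13.4% of all genes) and 4 were lower in ZT6 and ZT18 libraries (11.4% of all genes), where the microglia markers were low too. The lower ones were Selplg, Itgam (-3.66), Itgb2 (-3.52) and Itgax (-5.42), the last 3 being chains of the beta-2 integrins that bind ICAM-1. Itga4, whose product binds VCAM-1, was at 0.32 (adjusted p = 0.27 by edgeR). None of the 8 was called by genotype, and 1 had an unadjusted p under 0.05 by edgeR.

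Of 12 other venous genes, 5 passed the time test: the amino acid transporter Slc38a5, Tmsb10, Flrt2 and the co-receptor Nrp2, each higher in ZT6 and ZT18 libraries (0.54, 0.50, 0.36 and 0.56), and Cysltr1, lower there at -2.47. Genotype called 0 of the 12, with 2 at an unadjusted p under 0.05 by edgeR. Of 12 arterial genes, 4 passed the time test, 4 were higher in ZT6 and ZT18 libraries, and 1 was called by genotype. That was Gkn3, an arterial marker, with 89.5 reads in the average control and 18.8 in the average mutant (log2 fold change -2.28, adjusted p = 0.00447 by edgeR). The Ephb4 ligand Efnb2 was at 912.5 and 968 reads (log2 fold change 0.09, adjusted p = 0.917 by edgeR).

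In the interleukin-1, TNF and NF-kB list, 8 of 26 tested genes passed the time test, against 13.4% of all genes, with 1 higher and 7 lower in ZT6 and ZT18 libraries, against 7.21% and 11.4%. The lower ones included the cytokines Il1a (-5.32), Il1b (-4.82) and Tnf (-3.07), which microglia make, and the inhibitor Tnfaip3 (-1.05), and the higher one was Nfkbia (0.36), the NF-kB inhibitor. Of Il1b, control ZT10 replicate 1 alone had 559 reads. The mean over the 16 libraries of the other times, with that mouse included, was 66. Nfkbiz, another NF-kB inhibitor, passed the time test at 0.01 between the sets. Genotype called 0 of the 26, with 1 at an unadjusted p under 0.05 by edgeR. Of 7 tested chemokines and cytokines, 1 passed the time test, the monocyte attractant Ccl2, at -6.29 in ZT6 and ZT18 libraries, and genotype called 0 with 1 unadjusted. Of 12 other Eph receptors and ephrins, 2 passed the time test (Efnb1 and Efna1), and genotype called 0 with 2 unadjusted.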

How the data were processed

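Reads were aligned by the authors with STAR 2.5.3a to GRCm38, merged lanes with SAMtools 1.3.1, and counted and normalized reads on Ensembl release 91 genes with PORT. The deposited values are whole-number counts per gene, already brought to similar totals (6136404 to 6648311), and were used as counts. Libraries were strand-specific, and the strand setting of the counting is not given in the sources used here. Groups, time points and replicate numbers came from the labels.

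The filter asked for at least 5 reads in 6 or more mice of a genotype. The tests used edgeR 4.0.16 under R 4.3.3 (TMM, quasi-likelihood, genotype plus time point; 12 groups for the interactions; cosine and sine of 24 h for rhythms), with Benjamini-Hochberg adjustment over 15493 genes and a threshold of 0.05. DESeq2 1.42.0 was an alternative. The meta2d test was rewritten in Python 3.11.15 (NumPy 2.4.6, SciPy 1.17.1, pandas 2.3.3), and plots were drawn with matplotlib 3.10.9. Sets of libraries are those of ZT6 and ZT18 and those of the other times. Exon lengths are unions from GENCODE M21, and promoters are from RefSeq. The edgeR fits of genotype, time point, library sets, interactions and rhythm difference, and the meta2d test, were tried on simulated data. The other steps were not.

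The members, gene lists and rules were chosen with earlier results of these data known. Genes named are the 9 members, up to 6 called genes of each list, cell markers and, for members with 50 or more mean reads, the 3 most alike genes. Exceptions, named after their values were seen, are Itga4 and Efnb2, as binding partners, and genes overlapping members. A symbol listed under more than 1 gene ID was taken at the ID with more reads. Replicates are single mice, and in each of the 12 groups the 2 mice differed by more than counting noise (chi-square per degree of freedom 9.88 to 39.6; mice of different groups were not compared this way). Added after the data were seen were the endothelial scaling and leaving out the first block of title numbers. The other alternatives were other filters, library totals without TMM, DESeq2, an i5 index covariate, a replicate block, other sets of time points and each mouse left out in turn.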

Additional observations from a re-analysis of the deposited data

How the results depend on the processing

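PORT normalization hides the original depth. The genotype count stayed at 0 of 9 members under every alternative run, DESeq2 included. Members passing the time test were 4, against 1 with the i5 index as a covariate, 7 with no filter beyond 1 read, 3 without the first number block (a setting added after seeing the data) and 1 when scaled to summed endothelial markers. Shares of all genes given above (13.4% for the time test) are those of the main fit. Shares under the alternatives are not given here, so their counts are not set against a background. Members passing between library sets were 4, against 0 on the endothelial scale, a setting added after seeing the data, where Ephb4 was at -0.057, Icam1 at -0.18, Selp at -0.25 and Vcam1 at -0.013. With library totals and no TMM, Ephb4 lost the time call (edgeR adjusted p = 0.0549). Without single mice both counts ran from 3 to 5. Rhythm calls in mutants (unadjusted p under 0.05) were 0 by meta2d, 1 by the edgeR cosinor (Vcam1), and 0 to 2 by that cosinor without single mice. The lowest adjusted p of a member in these cosinor fits was 0.73 (Vcam1). The share of all genes that this cosinor calls is not given here, so its counts are not set against a background. Genotype values of uncalled members turned sign, those of Ackr1, Sele and Selp, the largest of the 9, among them. Without the first number block the value was -0.027 for Ephb4, and that of Selp between library sets was -0.0848. With the i5 covariate the log2 fold changes were 0.49 for Ackr1, -0.12 for Icam1, 0.023 for Il1r1 and 0.000804 for Selp. In ZT6 and ZT18 libraries only they were -0.018 for Ephb4, -0.14 for Icam1, 0.16 for Nr2f2 and -0.59 for Sele, and without those libraries 0.059 for Il1r1. On the endothelial scale they were -0.0022 for Ephb4 and -0.0252 for Icam1, where the all-gene median was -0.0384 against 0.00329 with TMM, so that both stayed above that median. Leaving out single mice gave -0.0082 to 0.069 for Ephb4, -0.11 to 0.11 for Icam1, -0.14 to 0.035 for Il1r1 and -1.04 to 0.041 for Selp. Between library sets it gave -0.85 to 0.33 for Sele and -0.78 to 0.57 for Selp. The difference of the genotype effect between the sets ran from -0.15 to 0.0089 for Ephb4 and from -0.51 to 0.058 for Icam1. Vcam1 gained a call between the sets with library totals and no TMM (edgeR adjusted p = 0.0413), with no filter beyond 1 read (0.0067), which made 5 members each, and in 3 fits without a single mutant (ZT2, ZT6 or ZT22 replicate 1, lowest 0.0196). Calls lost without a single mouse between the sets were Il1r1 in 5 fits (adjusted p up to 0.0781) and Nr2f2 in 1 (without mutant ZT6 replicate 1, adjusted p = 0.0529 by edgeR). The cause of these changes was not tested. A filter of 10 or more reads in every mouse leaves out Selp, Sele and Ackr1 and gives no value for them.

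Same-numbered mice did not deviate together (correlations -0.073 to 0.16 over 66 pairs of groups, median 0.012). Whether the replicate numbers mark the independent experiments of the paper is not stated in the labels. A replicate block left 0 members called by genotype, 4 by time of day and 4 between library sets. The edgeR cosinor with the block called 1 in mutants at an unadjusted p under 0.05 (Vcam1, unadjusted p = 0.0363, adjusted p = 0.9999). Icam2 was at 0.29 by genotype with the block.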
